A study of Mus musculus with 8 samples.

Results

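The data described here cover 9 genes for growth factors and TGF-beta receptors in MH-S cells, out of 17518 genes listed. The genes were chosen by symbol and comprise the ligand genes Tgfb1, Vegfa, Vegfb, Igf1, Pdgfa, Pdgfb and Hbegf and the receptor genes Tgfbr1 and Tgfbr2. MH-S is a mouse alveolar macrophage line, and polyadenylated RNA was sequenced from 8 libraries in 3 groups. The first group received LPS (lipopolysaccharide, from the outer membrane of Gram-negative bacteria) together with nanoparticles responsive to reactive oxygen species that carry the name RCMNs (LPS+RCMNs, n = 3; 100 ng/mL LPS and 1 µg/mL RCMNs). The second received LPS without the particles (n = 2; no separate dose is given), and the control group received phosphate-buffered saline (n = 3). The exposure times are not stated. All groups come from this 1 line. Whether replicates came from separate cultures is not stated, and p-values therefore cover no more than the variation among these libraries, part or all of which may be technical.

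These genes belong to 5 signalling systems through which macrophages act on neighbouring cells. TGF-beta 1, the Tgfb1 product, is secreted in a latent complex and, once released, binds the type II receptor encoded by Tgfbr2, which recruits and phosphorylates the type I receptor encoded by Tgfbr1; that kinase in turn phosphorylates the SMAD2 and SMAD3 proteins. In the lung, TGF-beta is known for its role in alveolar macrophage development, in the resolution of inflammation and in fibrosis. The VEGF, PDGF, IGF and EGF family ligands act through receptor tyrosine kinases and are known for vessel growth, for the expansion of mesenchymal cells, for tissue growth and for epithelial repair.

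The libraries held 18.6 to 21.2 M (mega) counts. Levels are given in CPM, counts per M of the TMM-scaled library size, and an absence of counts allows at most 0.130 to 0.182 CPM (3 counts, for counting error alone). All 9 genes passed the filter on low counts that left 11911 genes for testing. General macrophage markers were read as the sum of 9 genes. It ran from 6619 to 8277 CPM in LPS+RCMNs, from 5601 to 6713 CPM in LPS and from 4727 to 5756 CPM in control. Lyz2 was its largest part, averaging 3426, 3400 and 2163 CPM in the same order of groups. Adgre1, Cd68, Lyz2 and Cd14 averaged higher in LPS than in control. Csf1r, Itgam, Fcgr1, Ptprc and Mertk averaged lower. Mertk was low, at 8.27 CPM in LPS+RCMNs, 0.636 CPM in LPS and 10.8 CPM in control. Of the markers that define alveolar macrophages, several were near 0, with Siglecf at no more than 0.186 CPM, Marco at no more than 1.32 CPM, Pparg at no more than 0.506 CPM and Chil3, Ear2 and Car4 at 0 in every LPS+RCMNs and control library. Others were well above 0. Fabp5 averaged 260 CPM in LPS+RCMNs, 495 CPM in LPS and 148 CPM in control, Fabp4 averaged 63.8, 93.9 and 12.51 CPM in the same groups, and Itgax averaged 21.2, 10.6 and 10.6 CPM. Of 12 alveolar markers listed, 5 were tested. The sum of the list, carried mainly by Fabp5, ran from 343 to 353 CPM in LPS+RCMNs, from 596 to 605 CPM in LPS and from 155 to 204 CPM in control. Erythroid markers, mostly globins, summed to 0.658 to 34.1 CPM in LPS+RCMNs, 4359 to 5624 CPM in LPS and 0.867 to 20.7 CPM in control, and platelet markers, mostly Pf4, to 53.1 to 55.9 CPM, 217 to 226 CPM and 78.5 to 89.0 CPM in the same order of groups. Neutrophil markers stood at 4.97 to 5.57 CPM in LPS and at no more than 0.608 CPM elsewhere. Lymphocyte markers summed to at most 1.45 CPM, fibroblast markers to at most 0.727 CPM, epithelial markers to at most 0.424 CPM and endothelial markers to at most 12.0 CPM in any library. Fold changes also moved with gene length: across tested genes, the rank correlation with length was -0.58 for LPS versus control, 0.59 for LPS+RCMNs versus LPS and -0.09 for LPS+RCMNs versus control. Whether the erythroid, platelet and neutrophil transcripts have a part in the differences between LPS and the other groups was not tested. In bulk RNA, fewer cells of a type and less RNA per cell cannot be told apart.

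The genes lie on 9 different chromosomes (GRCm38.p6, gene IDs in brackets). Tgfb1 [21803] spans 25687002 to 25705077 on the plus strand of chromosome 7, Tgfbr1 [21812] spans 47353222 to 47414926 on the plus strand of chromosome 4, and Tgfbr2 [21813] spans 116087695 to 116175363 on the minus strand of chromosome 9. Vegfa [22339] spans 46016993 to 46032377 on the minus strand of chromosome 17 and Vegfb [22340] spans 6982472 to 6987651 on the minus strand of chromosome 19. Igf1 [16000] spans 87858265 to 87937047 on the plus strand of chromosome 10, Pdgfa [18590] spans 138976014 to 139000792 on the minus strand of chromosome 5, Pdgfb [18591] spans 79995865 to 80024614 on the minus strand of chromosome 15, and Hbegf [15200] lies on chromosome 18. Of 3119 exon bases of Pdgfa, 813 overlap exons of 6330403L08Rik on the opposite strand; whether counting used strand is not stated, so Pdgfa reads cannot be assigned with certainty.

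LPS+RCMNs replicate 2 and control replicate 1 were treated as a pair of libraries that stood apart from their groups. No label marks this pair, which was picked from the values of these same libraries. The 2-fold share that follows was not counted for the other libraries. Leaving out a pair picked in this way narrows the spread within groups, so calls gained without it are descriptions. Of all tested genes, 4.92% differed at least 2-fold either way between LPS+RCMNs replicate 2 and the mean of the other LPS+RCMNs replicates, and 5.67% between control replicate 1 and the mean of the other control replicates. Values without both libraries are given for the 9 genes and for the gene lists that moved most without them. In that setting, the share of all tested genes called was 74.9% in LPS versus control, 73.8% in LPS+RCMNs versus LPS and 25.5% in LPS+RCMNs versus control.

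The promoters of the 4 genes that passed the test between groups are shown because 3 of these genes fell together in LPS and 1 rose in CPM. Each line holds the 250 bases before the most upstream RefSeq start (RefSeq, GRCm38.p6), 5′ to 3′ on the gene's strand, with SP1-type GC boxes (GGGCGG, either strand) in capitals.
Tgfbr1, chr4:47352972-47353221, plus strand: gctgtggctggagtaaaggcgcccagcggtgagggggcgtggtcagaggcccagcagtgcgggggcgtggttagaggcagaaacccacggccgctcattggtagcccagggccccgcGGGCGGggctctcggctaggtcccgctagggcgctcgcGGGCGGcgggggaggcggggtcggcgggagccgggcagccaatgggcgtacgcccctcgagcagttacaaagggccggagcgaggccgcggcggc
Tgfbr2, chr9:116175364-116175613, minus strand: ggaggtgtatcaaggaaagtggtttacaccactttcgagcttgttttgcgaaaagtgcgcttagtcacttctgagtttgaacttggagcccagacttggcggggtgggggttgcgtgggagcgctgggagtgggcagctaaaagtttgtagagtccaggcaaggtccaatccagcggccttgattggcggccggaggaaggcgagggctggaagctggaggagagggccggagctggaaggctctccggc
Vegfa, chr17:46032378-46032627, minus strand: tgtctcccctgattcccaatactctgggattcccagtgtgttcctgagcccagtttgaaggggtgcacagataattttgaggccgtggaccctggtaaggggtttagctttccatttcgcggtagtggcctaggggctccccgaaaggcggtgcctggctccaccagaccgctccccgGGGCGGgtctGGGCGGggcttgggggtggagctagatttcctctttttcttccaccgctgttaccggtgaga
Tgfb1, chr7:25686752-25687001, plus strand: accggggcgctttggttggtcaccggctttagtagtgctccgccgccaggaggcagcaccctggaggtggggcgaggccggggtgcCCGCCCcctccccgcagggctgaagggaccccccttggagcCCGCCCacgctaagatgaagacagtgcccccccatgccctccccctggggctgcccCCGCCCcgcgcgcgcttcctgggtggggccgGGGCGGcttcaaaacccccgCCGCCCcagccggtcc
The Tgfb1 window held 5 GC boxes, the Tgfbr1 and Vegfa windows 2 each, and the Tgfbr2 window none of these letters. At least 1 GC box is present in 32.7% of all 32851 promoter windows of this length. Tgfb1 and Tgfbr1 had a GC content of 75.2% and 74.8%, Vegfa and Tgfbr2 of 59.2% and 58.4%, and the median of all windows was 52.4%. The EGR motif GCGGGGGCG was found once in Tgfbr1 (2.57% of all windows), and the EGR motif GCGTGGGCG once in Tgfb1 (0.536% of all windows), where it overlaps a GC box. The HIF core ACGTG, present in 16.6% of all windows, was absent from these 4 windows as letters, and was found once in the window of another, downstream Vegfa start. The AP-1 motif TGANTCA (6.75% of all windows), the palindromic SMAD element GTCTAGAC (0.167%) and the TATA box TATAAA (12.4%) were also not among the letters of these 4 windows; the Igf1 window held 1 AP-1 motif. Windows were at hand for 7 of the 9 genes, and those of Pdgfb and Hbegf were not used here. A match describes the letters in a window and is not evidence of a bound site.

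**Figure D1:**
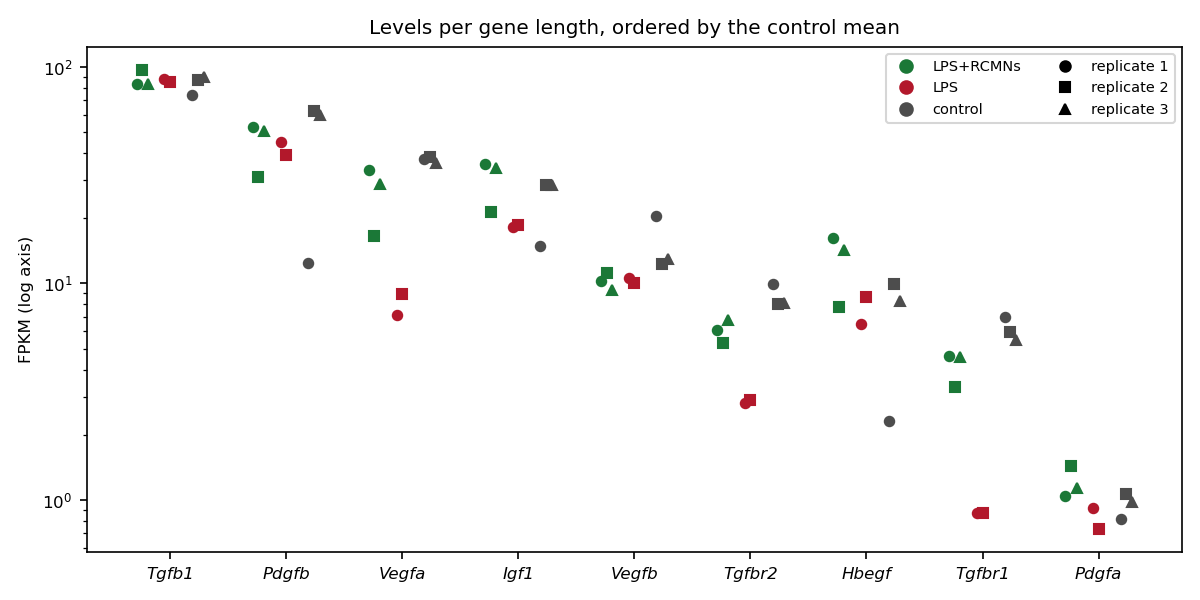
FPKM (log axis) of the 9 genes in each of the 8 libraries, ordered along the x axis by the control mean; colours mark the groups and symbols the replicates. Tgfb1 lies between 74.1 and 96.8 FPKM in all libraries, Pdgfa near 1, and Vegfa, Tgfbr2 and Tgfbr1 have their lowest points in the LPS libraries.

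Levels were compared between genes in FPKM, the authors' length-scaled values. In LPS+RCMNs the mean order was Tgfb1 (88.0 FPKM), Pdgfb (44.9), Igf1 (30.4), Vegfa (26.3), Hbegf (12.8), Vegfb (10.3), Tgfbr2 (6.04), Tgfbr1 (4.17) and Pdgfa (1.203). In LPS it was Tgfb1 (86.4 FPKM), Pdgfb (42.0), Igf1 (18.4), Vegfb (10.3), Vegfa (8.02), Hbegf (7.55), Tgfbr2 (2.85), Tgfbr1 (0.870) and Pdgfa (0.825). In control it was Tgfb1 (83.8 FPKM), Pdgfb (45.0), Vegfa (37.3), Igf1 (24.01), Vegfb (15.2), Tgfbr2 (8.70), Hbegf (6.83), Tgfbr1 (6.15) and Pdgfa (0.953). Tgfb1 thus led and Pdgfa came last in all 3 groups, while Vegfa was the fourth in LPS+RCMNs, the fifth in LPS and the third in control. Neighbours whose libraries overlapped were Pdgfb and Igf1, Igf1 and Vegfa, and Hbegf and Vegfb in LPS+RCMNs, Vegfa and Hbegf as well as Tgfbr1 and Pdgfa in LPS, and Pdgfb and Vegfa, Igf1 and Vegfb, Tgfbr2 and Hbegf, and Hbegf and Tgfbr1 in control. Among tested genes, the median FPKM of Tgfb1 lay at percentile 91.7 and that of Pdgfa at percentile 15.3. Tgfbr1 had the widest spread over libraries (0.870 to 7.01 FPKM, 8.06-fold) and Tgfb1 the narrowest (74.1 to 96.8 FPKM, 1.31-fold).

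The comparison of LPS with control sets libraries of cells given LPS without particles against control libraries. These groups also differ in erythroid transcripts and with gene length, as given above. Both TGF-beta receptor genes and Vegfa fell. Tgfb1 rose by less in CPM, while its FPKM overlapped between these groups. Thus 1 of 9 genes was called higher and 3 were called lower (edgeR quasi-likelihood test, Benjamini-Hochberg adjusted p below 0.05 over all genes tested). Of all tested genes, 31.4% were called higher and 32.1% lower, 63.4% in all, so the count of 4 of 9 is not above the background. The TMM factors were 0.78 and 0.80 in LPS, and 1.13, 1.09 and 1.10 in control. A lower factor raises the CPM of a library. On the log2(FPKM + 1) scale, which carries no TMM scaling, limma called 2113 genes higher and 5925 lower, against 3736 and 3818 in the count test. The median log2 fold change of all genes was -0.33 there, against -0.04.

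**Figure D2:**
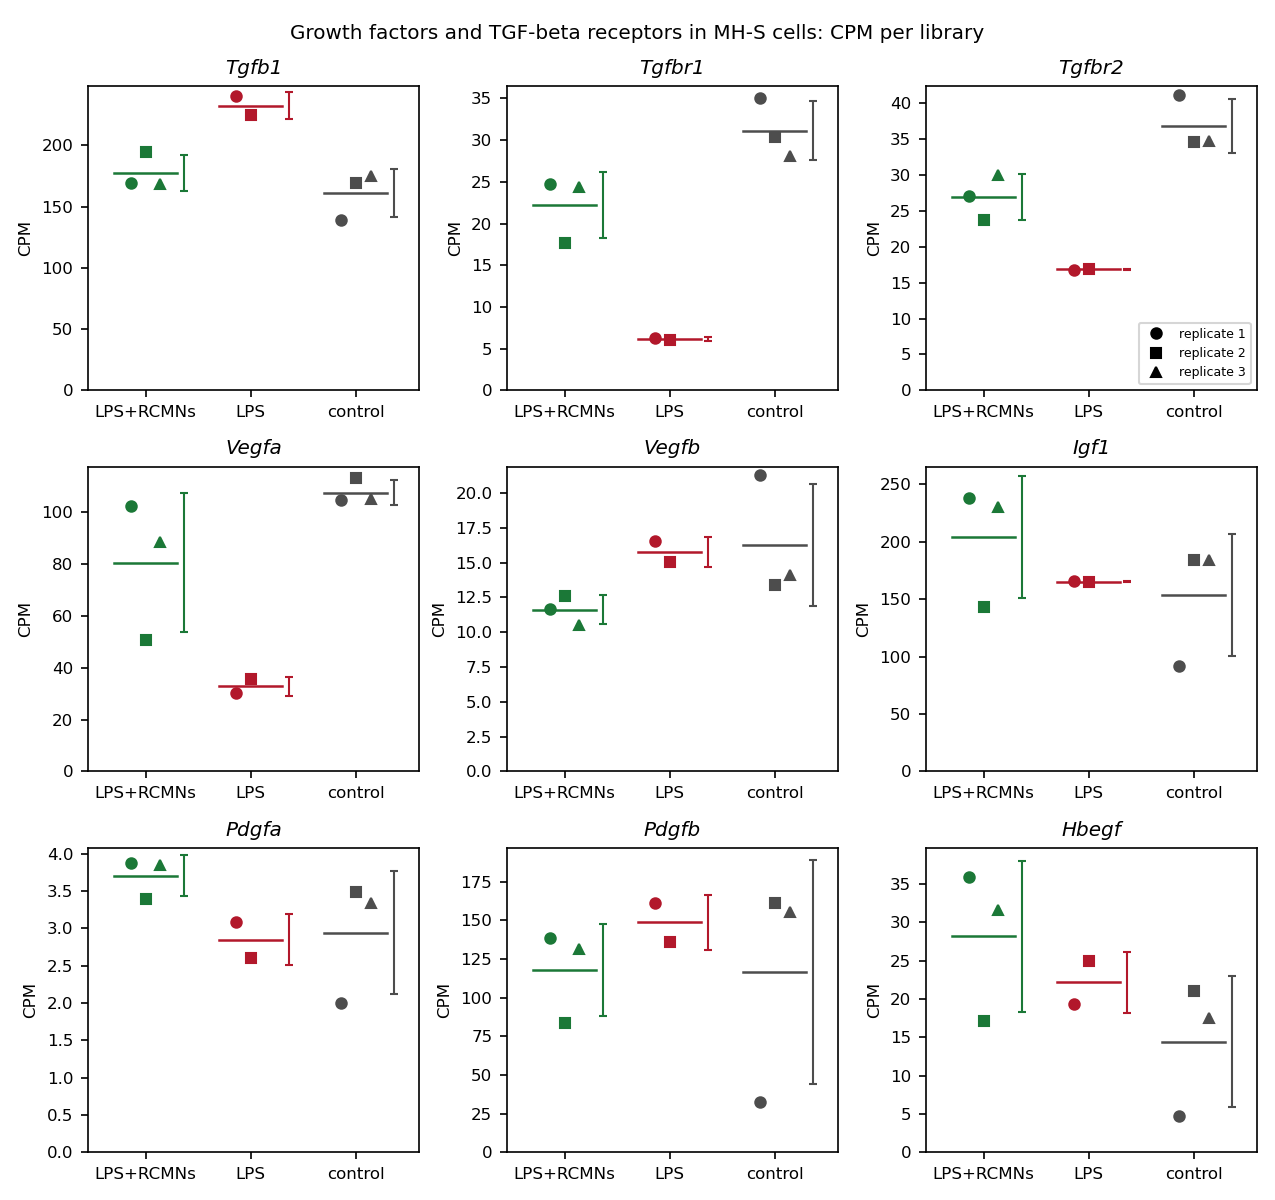
CPM of each gene in each library (points, symbols by replicate), with the group mean (line) and SD (bar at the right of each group) for LPS+RCMNs (n = 3), LPS (n = 2) and control (n = 3). The LPS libraries are the lowest for Tgfbr1, Tgfbr2 and Vegfa and the highest for Tgfb1; control replicate 1 is the lowest control library for Pdgfb, Hbegf, Igf1 and Pdgfa.

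Tgfbr1 encodes the type I receptor kinase. It had 24.7, 17.7 and 24.4 CPM in LPS+RCMNs, 6.30 and 5.998 CPM in LPS, and 35.0, 30.4 and 28.1 CPM in control. No 2 groups overlapped, with LPS lowest and control highest. Tgfbr1 fell by 2.34 ± 0.19 on the log2 scale (SE) in LPS versus control, a 5.06-fold lower level (edgeR adjusted p = 9.79e-06). The call held in all 21 alternatives, between -2.68 and -1.43.

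Tgfbr2 encodes the type II receptor that binds the ligand first. It had 27.0, 23.6 and 30.0 CPM in LPS+RCMNs, 16.8 and 16.9 CPM in LPS, and 41.1, 34.5 and 34.7 CPM in control. Again no 2 groups overlapped and the order was the same as for Tgfbr1. Tgfbr2 fell by 1.13 ± 0.14 (SE) on the log2 scale in LPS versus control, 2.19-fold (edgeR adjusted p = 1.09e-04), and the call held in all 21 alternatives. With a surface on gene length and level removed, the log2 fold change was -0.42.

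Within a library, the FPKM of Tgfbr2 over that of Tgfbr1 was 1.31, 1.60 and 1.47 in LPS+RCMNs, 3.21 and 3.33 in LPS, and 1.41, 1.35 and 1.48 in control. The ratio was thus higher in both LPS libraries than in any other library, so the receptor genes changed unequally; the lengths that the files imply for them are 4.69 kb for Tgfbr2 and 5.62 kb for Tgfbr1.

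Tgfb1, the ligand gene, had 169, 194 and 168 CPM in LPS+RCMNs, 240.1 and 225 CPM in LPS, and 139, 169 and 175 CPM in control. Both LPS libraries lay above all others, and the LPS+RCMNs and control libraries overlapped. Tgfb1 rose by 0.53 ± 0.12 (SE, log2) in LPS versus control, 1.44-fold (edgeR adjusted p = 0.00382). In FPKM the groups overlapped, at 83.7, 96.8 and 83.4 in LPS+RCMNs, 87.9 and 84.8 in LPS, and 74.1, 87.1 and 90.3 in control, and limma on log2(FPKM + 1) gave a log2 fold change of 0.05. The call was also lost with a trend on gene length removed (0.31) or with a surface on length and level removed (0.05).

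Vegfa encodes the main ligand for vessel growth and is a textbook target of hypoxia-inducible factors. It had 102, 50.8 and 88.5 CPM in LPS+RCMNs, 30.2 and 35.5 CPM in LPS, and 105, 113 and 105 CPM in control. The LPS libraries lay below all others, and LPS+RCMNs replicate 2 was nearest to them. Vegfa fell by 1.71 ± 0.26 (SE, log2) in LPS versus control, 3.28-fold (edgeR adjusted p = 3.42e-04), and was called in all 21 alternatives, between -2.21 and -1.53.

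Vegfb encodes a ligand of the receptor FLT1. It had 11.7, 12.6 and 10.5 CPM in LPS+RCMNs, 16.5 and 15.02 CPM in LPS, and 21.3, 13.4 and 14.1 CPM in control. In CPM the LPS and control libraries overlapped, and control replicate 1 was the highest of all 8. In FPKM the LPS libraries (10.58 and 10.01) lay below the control libraries (20.53, 12.29 and 12.92). Its log2 fold change in LPS versus control was -0.05 ± 0.21 (SE; edgeR adjusted p = 0.862). It became -0.80 with the trend on gene length removed and -0.71 with the surface removed, both past the threshold; Vegfb, at 1.19 kb, is the shortest of the 9 genes by implied length.

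The FPKM of Vegfa over that of Vegfb was 3.25, 1.48 and 3.09 in LPS+RCMNs, 0.675 and 0.889 in LPS, and 1.82, 3.13 and 2.78 in control. Vegfb therefore exceeded Vegfa per length in both LPS libraries, and in no other library.

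**Figure D3:**
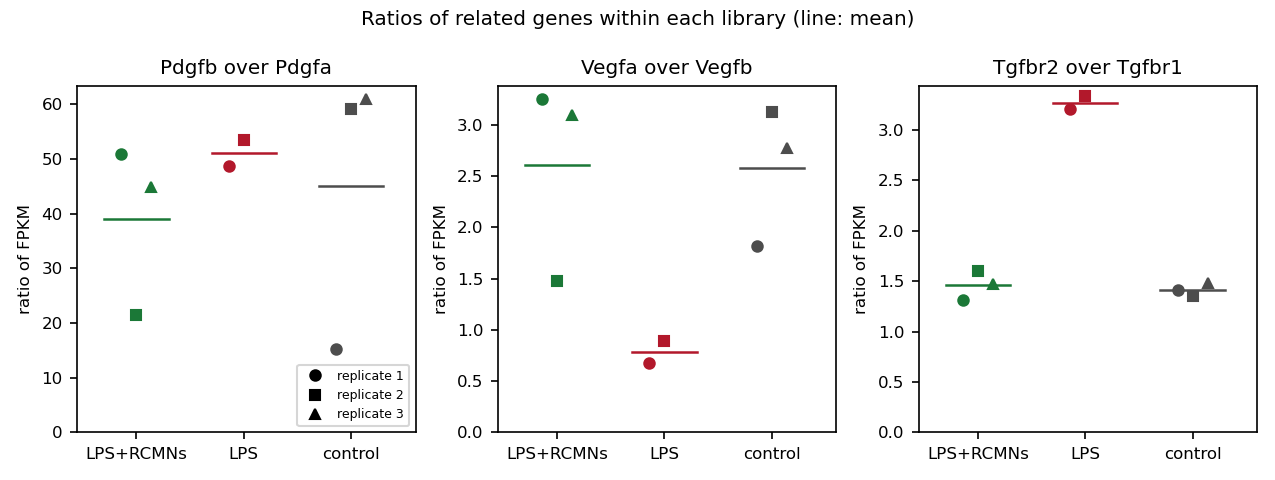
Ratio of FPKM within each library for Pdgfb over Pdgfa, Vegfa over Vegfb and Tgfbr2 over Tgfbr1 (points by replicate, line: group mean). The LPS libraries are lowest for Vegfa over Vegfb (0.675 and 0.889) and highest for Tgfbr2 over Tgfbr1 (3.21 and 3.33), while for Pdgfb over Pdgfa the low points are LPS+RCMNs replicate 2 (21.5) and control replicate 1 (15.2). The implied length of Pdgfa varied 1.57-fold between libraries, which enters its FPKM.

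Igf1 encodes insulin-like growth factor 1. It had 238, 143 and 230.5 CPM in LPS+RCMNs, 165 and 165 CPM in LPS, and 92.0, 184 and 184 CPM in control. LPS+RCMNs replicate 2 and control replicate 1 were the lowest libraries of their groups, and all 3 groups overlapped in CPM. The log2 fold change in LPS versus control was 0.11 ± 0.30 (SE; edgeR adjusted p = 0.776). It was 0.89 with the trend on gene length removed and 0.92 with the surface removed, both past the threshold, and -0.31 with limma on log2(FPKM + 1); at 7.07 kb, Igf1 is the longest of the 9 genes by implied length.

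Pdgfb encodes the PDGF chain that binds both PDGF receptors. It had 139, 83.6 and 131 CPM in LPS+RCMNs, 161 and 136 CPM in LPS, and 32.9, 161 and 155 CPM in control. Control replicate 1 was 4.81-fold below the mean of the other control libraries, and the groups overlapped. The log2 fold change in LPS versus control was 0.35 ± 0.53 (SE; edgeR adjusted p = 0.577), and -0.04 without control replicate 1.

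Pdgfa encodes the chain that binds PDGF receptor alpha. It was near the low end of tested genes, with 79, 67 and 80 counts in LPS+RCMNs, 51 and 43 in LPS, and 46, 75 and 72 in control. In CPM these were 3.88, 3.39 and 3.85 in LPS+RCMNs, 3.09 and 2.61 in LPS, and 1.99, 3.49 and 3.34 in control. The LPS and control groups overlapped, and the log2 fold change was -0.05 ± 0.28 (SE; edgeR adjusted p = 0.895). Its implied length varied 1.57-fold between libraries, against at most 1.09-fold for the other 8 genes, so its FPKM are less certain than its counts.

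Hbegf encodes a membrane-anchored EGF receptor ligand that is released by shedding. It had 35.9, 17.1 and 31.6 CPM in LPS+RCMNs, 19.3 and 25.02 CPM in LPS, and 4.77, 21.1 and 17.5 CPM in control. Control replicate 1 was 4.05-fold below the mean of the other control libraries, and all groups overlapped. The log2 fold change in LPS versus control was 0.62 ± 0.51 (SE; edgeR adjusted p = 0.317), and 0.25 without control replicate 1.

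Without LPS+RCMNs replicate 2 and control replicate 1, the same 4 of 9 genes were called in LPS versus control, with log2 fold changes of -2.19 for Tgfbr1, -0.99 for Tgfbr2, -1.68 for Vegfa and 0.49 for Tgfb1. The other 5 were not called, at 0.25 for Vegfb, -0.10 for Igf1, -0.21 for Pdgfa, -0.04 for Pdgfb and 0.25 for Hbegf.

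The comparison of LPS+RCMNs with LPS sets cells given LPS and particles against cells given LPS without them. The same differences in erythroid transcripts and with gene length apply. Tgfbr1, Tgfbr2 and Vegfa rose and Tgfb1 fell in CPM though not in FPKM, so that 3 of 9 genes were called higher and 1 lower. Of all tested genes, 29.8% were called higher and 29.5% lower, 59.3% in all, so the count of 4 of 9 is again not above the background. This comparison shares both LPS libraries with the one above, so the opposite signs are not independent of each other. On the log2(FPKM + 1) scale limma called 5448 genes higher and 2117 lower, against 3555 and 3508 in the count test, and the median log2 fold change of all genes was 0.27, against 0.03.

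Tgfbr1 rose by 1.86 ± 0.19 (SE, log2) in LPS+RCMNs versus LPS, 3.62-fold (edgeR adjusted p = 4.20e-05), and Vegfa by 1.29 ± 0.25, 2.45-fold (edgeR adjusted p = 0.00185). Both were called in all 21 alternatives, between 1.06 and 2.12 for Tgfbr1 and between 1.09 and 1.65 for Vegfa. Tgfbr2 rose by 0.68 ± 0.14 (SE, log2), 1.60-fold (edgeR adjusted p = 0.00248). With the trend on gene length removed the Tgfbr2 value was 0.16 and with the surface removed 0.04, and neither passed the threshold.

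Tgfb1 fell by 0.39 ± 0.12 (SE, log2) in LPS+RCMNs versus LPS, 1.31-fold (edgeR adjusted p = 0.0190). The call was lost without LPS replicate 1 (-0.36), without LPS+RCMNs replicate 1 (-0.36) or 3 (-0.38), and with the length trend removed (-0.19). With limma on log2(FPKM + 1) the value was 0.02 and with the surface removed also 0.02, so the direction turned there.

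The other 5 genes were not called in LPS+RCMNs versus LPS. Their log2 fold changes were -0.44 ± 0.21 for Vegfb, 0.30 ± 0.30 for Igf1, 0.38 ± 0.28 for Pdgfa, -0.34 ± 0.53 for Pdgfb and 0.35 ± 0.52 for Hbegf (SE), with edgeR adjusted p values from 0.0942 for Vegfb to 0.604 for Pdgfb. In CPM, the LPS+RCMNs libraries lay wholly below the LPS libraries for Vegfb and wholly above them for Pdgfa, and overlapped them for the other 3 genes. In FPKM the Vegfb libraries overlapped, at 10.26, 11.22 and 9.33 in LPS+RCMNs and 10.58 and 10.01 in LPS. The FPKM of Igf1 did separate, at 21.44 to 35.45 in LPS+RCMNs and 18.19 to 18.62 in LPS. How many of all tested genes separate between these groups was not counted. Without LPS+RCMNs replicate 2 and control replicate 1, 7 of 9 genes were called, with Igf1 (0.48) and Hbegf (0.58) now past the threshold as higher and Vegfb (-0.53) as lower. As 73.8% of all genes were called in that setting, 7 of 9 is near the background. The remaining values there were 1.97 for Tgfbr1, 0.73 for Tgfbr2, 1.51 for Vegfa, -0.49 for Tgfb1, 0.41 for Pdgfa and -0.17 for Pdgfb, of which the last 2 were not called.

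**Figure D4:**
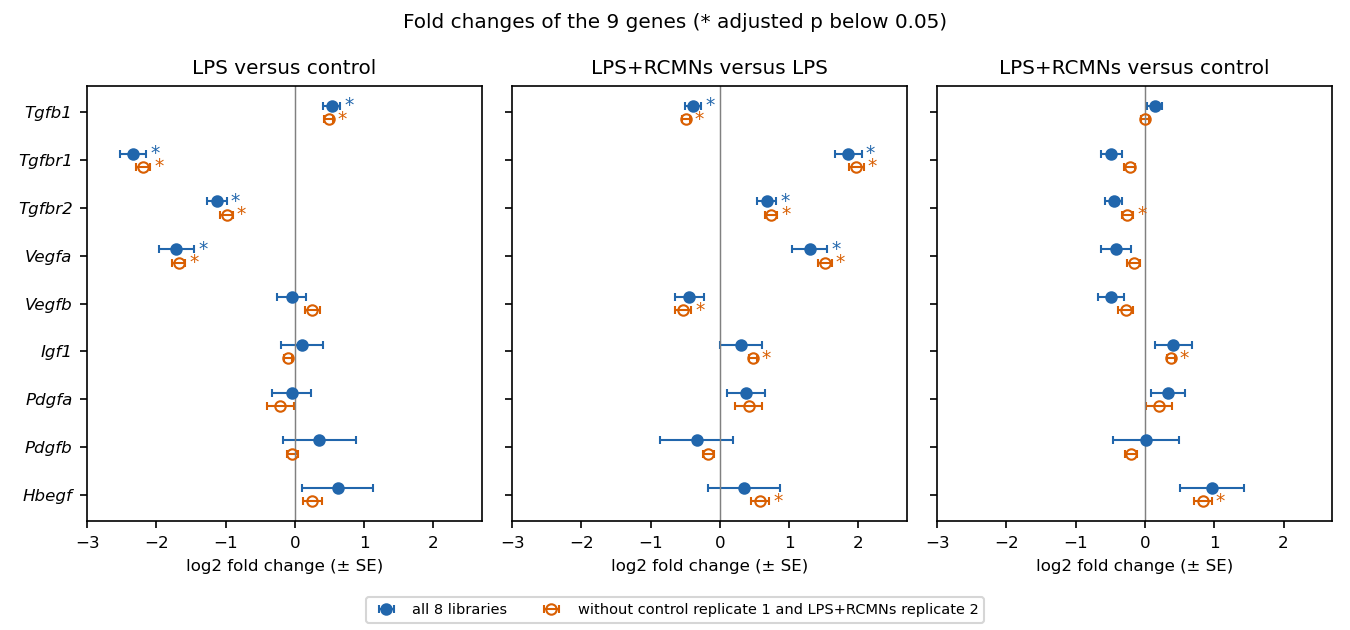
Log2 fold change ± SE of the 9 genes in the 3 comparisons, with all 8 libraries (filled) and without LPS+RCMNs replicate 2 and control replicate 1 (open); an asterisk marks an adjusted p below 0.05. Tgfbr1, Tgfbr2 and Vegfa lie left of 0 in LPS versus control and right of 0 in LPS+RCMNs versus LPS, and the bars of Pdgfb and Hbegf shrink most when those libraries are left out.

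The comparison of LPS+RCMNs with control asks what remained different from untreated cells in cells given LPS and particles. None of the 9 genes was called by edgeR, where 7.56% of all tested genes were (4.33% higher and 3.23% lower). Before adjustment, 3 had an edgeR p below 0.05, as did 22.9% of all genes. These were Tgfbr1, Tgfbr2 and Vegfb, each lower in LPS+RCMNs. DESeq2 called 2 genes lower, Tgfbr1 and Tgfbr2, and limma on log2(FPKM + 1) called Tgfbr2 lower. On that scale limma called 407 genes higher and 565 lower, against 516 and 385 in the count test.

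The LPS+RCMNs libraries lay below the control libraries for Tgfbr1, Tgfbr2, Vegfa and Vegfb. The gap was narrow for Vegfa, with LPS+RCMNs replicate 1 at 102 CPM and control replicate 1 at 105 CPM. It was also narrow for Vegfb, with LPS+RCMNs replicate 2 at 12.6 CPM and control replicate 2 at 13.4 CPM. How many of all tested genes separate in this way was not counted. The log2 fold changes in LPS+RCMNs versus control were -0.48 ± 0.15 for Tgfbr1, -0.45 ± 0.12 for Tgfbr2, -0.42 ± 0.21 for Vegfa and -0.49 ± 0.19 for Vegfb (SE, n = 3 each), with edgeR adjusted p values of 0.0872, 0.0528, 0.283 and 0.155. These values do not show that the receptor genes returned to the control level. The other 5 genes overlapped between the groups, with 0.14 ± 0.11 for Tgfb1, 0.41 ± 0.27 for Igf1, 0.33 ± 0.24 for Pdgfa, 0.02 ± 0.47 for Pdgfb and 0.97 ± 0.46 for Hbegf.

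Without LPS+RCMNs replicate 2 and control replicate 1, 3 of 9 genes were called in LPS+RCMNs versus control. Hbegf (0.83) and Igf1 (0.38) were then called higher and Tgfbr2 (-0.25) lower, and the log2 fold change of Tgfbr1 was -0.22. Of all genes, 25.5% were called in that setting, so 3 of 9 is near the background. The other values there were -0.17 for Vegfa, -0.28 for Vegfb, -0.0015 for Tgfb1, 0.20 for Pdgfa and -0.20 for Pdgfb, none of them called.

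The libraries that stood apart differed from their groups most in Pdgfb, Hbegf, Igf1 and, for LPS+RCMNs, Vegfa. LPS+RCMNs replicate 2 lay below the mean of the other LPS+RCMNs replicates by 1.97-fold for Hbegf, 1.88-fold for Vegfa, 1.64-fold for Igf1 and 1.61-fold for Pdgfb, and by 1.39-fold for Tgfbr1 and 1.21-fold for Tgfbr2. Control replicate 1 lay below the mean of the other controls by 4.81-fold for Pdgfb, 4.05-fold for Hbegf, 2.001-fold for Igf1 and 1.71-fold for Pdgfa. It lay above them by 1.55-fold for Vegfb, 1.199-fold for Tgfbr1 and 1.19-fold for Tgfbr2. Pdgfb over Pdgfa in FPKM was 50.9, 21.5 and 44.9 in LPS+RCMNs, 48.8 and 53.5 in LPS, and 15.2, 59.1 and 61.1 in control, so both of these libraries had the lowest ratios.

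The other genes of these pathways were described by list, and the counts stand beside 63.4%, 59.3% and 7.56% of all genes called in LPS versus control, LPS+RCMNs versus LPS and LPS+RCMNs versus control. In LPS versus control, the share called in a list ran from 36.4% for TGF-beta response genes to 88.9% for TGF-beta family receptors and for hypoxia genes. In LPS+RCMNs versus LPS it ran from 27.3% for TGF-beta response genes to 77.8% for TGF-beta family receptors, and in LPS+RCMNs versus control from none in 4 lists to 66.7% for the IGF family. With few genes in a list, these shares are descriptions.

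For TGF-beta ligands and their activation, 11 of 19 listed genes were tested. Of these, 2 were called higher and 6 lower in LPS versus control (median log2 fold change -0.95, against -0.04 for all genes), in LPS+RCMNs versus LPS 7 higher and 1 lower (median 0.99, against 0.03), and in LPS+RCMNs versus control 4 higher and 1 lower (median 0.47, against -0.02). With the trend on gene length removed the counts in LPS versus control were 5 higher and 5 lower. The 5 calls in LPS+RCMNs versus control became 2, both higher, without LPS+RCMNs replicate 1, without LPS+RCMNs replicate 3 or without control replicate 3, and 3, all higher, without control replicate 2 or without either LPS replicate. They became 5 higher and 2 lower without both libraries that stood apart (median 0.58). Itgav, the integrin alpha V chain that activates latent TGF-beta, averaged 77.2 ± 11.5 CPM in LPS+RCMNs (n = 3), 18.7 ± 2.88 CPM in LPS (n = 2) and 76.9 ± 10.5 CPM in control (SD, n = 3). It fell by 2.04 on the log2 scale in LPS versus control (edgeR adjusted p = 1.47e-05) and rose by 2.04 in LPS+RCMNs versus LPS (edgeR adjusted p = 1.90e-05). Thbs1, encoding thrombospondin 1, another activator, averaged 73.0 ± 17.3 CPM in LPS+RCMNs, 4.91 ± 0.773 CPM in LPS and 30.9 ± 8.003 CPM in control (SD), and was called in all 3 comparisons. Plau, encoding the protease urokinase, averaged 1195 ± 556 CPM in LPS+RCMNs, 72.3 ± 13.5 CPM in LPS and 861 ± 305 CPM in control (SD), a rise of 4.05 in LPS+RCMNs versus LPS (log2; edgeR adjusted p = 1.41e-04). Nrros, which tethers latent TGF-beta 1 on macrophage lineage cells and was named after its values were seen, fell by 1.45 in LPS versus control and rose by 1.12 in LPS+RCMNs versus LPS (log2).

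The ligand gene Tgfb2 was low, at 0.245 ± 0.0792 CPM in LPS+RCMNs, 1.67 ± 0.129 CPM in LPS and 0.0609 ± 0.0277 CPM in control (SD). It was called higher in LPS versus control and lower in LPS+RCMNs versus LPS, and its control level lay below the limit that a count of 0 allows. Tgfb3 had 4 counts over all 8 libraries and was not tested. Chosen after their values were seen, the genes called in LPS+RCMNs versus control were Mmp9, a protease (1.88), Ltbp2, a latent TGF-beta binding protein (1.65), Thbs1 (1.24) and Furin, the protease that cleaves the TGF-beta precursor (0.66), all higher, and Ltbp4 (-1.31), which was lower (log2 fold changes). Ltbp2 and Ltbp4 were no longer called without any 1 of several libraries, either LPS replicate included, and Furin without LPS+RCMNs replicate 1 or 3 or control replicate 3.

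Among the other receptors of the TGF-beta family, 9 of 10 listed genes were tested, and Tgfbr3 had 0 counts in all libraries. In LPS versus control 2 were called higher and 6 lower (median -0.60), in LPS+RCMNs versus LPS 6 higher and 1 lower (median 0.74), and in LPS+RCMNs versus control none by edgeR. With the surface on length and level removed the counts were 2 higher and 2 lower in LPS versus control and 3 higher and 1 lower in LPS+RCMNs versus LPS, and the medians were 0.16, of opposite sign, and 0.17. With the length trend removed the medians were -0.07 and 0.28. Without LPS replicate 1, 1 was called higher and 4 lower in LPS versus control. Without the libraries that stood apart, 3 were called higher in LPS+RCMNs versus control, and 2 without LPS+RCMNs replicate 2 alone. Bmpr2, the BMP type II receptor, averaged 86.1 ± 3.25 CPM in LPS+RCMNs, 27.4 ± 1.23 CPM in LPS and 100.04 ± 6.64 CPM in control (SD), a fall of 1.87 in LPS versus control and a rise of 1.65 in LPS+RCMNs versus LPS (log2). The activin receptor gene Acvr2b averaged 14.2 ± 0.311 CPM in LPS+RCMNs, 4.85 ± 0.773 CPM in LPS and 18.8 ± 2.27 CPM in control (SD) and was called in the same directions. Bmpr1a, a BMP type I receptor gene, rose by 0.85 in LPS+RCMNs versus LPS. Bambi, a pseudoreceptor that inhibits TGF-beta signalling, stood at 0.314 ± 0.200 CPM in LPS+RCMNs, 1.39 CPM in both LPS libraries and 0.0289 ± 0.0501 CPM in control (SD), and was called higher in LPS versus control and lower in LPS+RCMNs versus LPS. Eng, an auxiliary receptor gene, averaged 1.64 ± 0.199 CPM in LPS+RCMNs, 1.12 ± 0.214 CPM in LPS and 0.958 ± 0.155 CPM in control (SD) and was not called.

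Of the SMADs and their regulators, 15 of 17 were tested. In LPS versus control 2 were called higher and 8 lower (66.7%, near the background; median -0.42), in LPS+RCMNs versus LPS 7 higher and none lower (46.7%, below the background; median 0.29), and in LPS+RCMNs versus control none by edgeR (1 higher and 4 lower without the libraries that stood apart, and 3 lower without LPS+RCMNs replicate 2 alone). With the surface removed the split turned, to 4 higher and 2 lower in LPS versus control and to none higher and 4 lower in LPS+RCMNs versus LPS, at medians of 0.23 and -0.28. With the length trend removed the medians turned as well, to 0.06 and -0.11. Without both libraries that stood apart, the median in LPS+RCMNs versus LPS was 0.18, at 7 higher and 2 lower. Of the SMADs that the TGF-beta type I receptor phosphorylates, Smad3 averaged 9.41 ± 3.203 CPM in LPS+RCMNs, 3.39 ± 0.0869 CPM in LPS and 16.0 ± 0.687 CPM in control (SD), and fell by 2.24 in LPS versus control (edgeR adjusted p = 9.42e-05). Smad2, named after its values were seen, went the other way in CPM in LPS versus control. It averaged 70.04 ± 5.46 CPM in LPS+RCMNs, 80.5 ± 5.62 CPM in LPS and 67.6 ± 2.29 CPM in control (SD). The rise of 0.25 was just past the threshold (log2, edgeR adjusted p = 0.0476). No gene of this list, Smad2 included, was called higher there with limma on either FPKM scale or with the filter at 5 FPKM. Ski, a SMAD corepressor gene, fell by 1.04 in LPS versus control and rose by 0.91 in LPS+RCMNs versus LPS, and Smad5, a BMP-pathway SMAD gene, fell by 0.92 in LPS versus control. Trim33 (0.71), encoding a SMAD4 regulator, and Smurf1 (0.85), a ubiquitin ligase gene, rose in LPS+RCMNs versus LPS. Trim33 turned to -0.11 with the length trend removed and to -0.34 with the surface removed. Ski and Smurf1 were not called higher in that comparison with the surface removed either. With the length trend removed, 1 gene of the list was called higher and 2 lower in LPS+RCMNs versus LPS. Smad7, an inhibitory SMAD gene named after its values were seen, rose by 1.01 in LPS versus control (log2; edgeR adjusted p = 0.0278), and it missed the threshold when either LPS replicate was left out.

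Of the TGF-beta response genes, 11 of 15 listed were tested. In LPS versus control 2 were called higher and 2 lower (median 0.28), in LPS+RCMNs versus LPS 3 higher and none lower (median 0.15), and none was called in LPS+RCMNs versus control by edgeR. Without the libraries that stood apart, the counts in the 3 comparisons were 3 higher and 5 lower, 4 higher and 3 lower, and 3 higher and 3 lower, and the median in LPS versus control was -0.08. With control replicate 1 alone left out, LPS versus control had also 3 higher and 5 lower and LPS+RCMNs versus LPS had 3 higher and 2 lower, and without LPS replicate 2 LPS versus control had none higher and 2 lower. With LPS+RCMNs replicate 2 alone left out, 1 was higher and 1 lower in LPS+RCMNs versus control. With the surface removed, the median in LPS versus control turned to -0.39, at 1 higher and 3 lower, and that in LPS+RCMNs versus LPS was 0.47. With the length trend removed the medians were -0.20 and 0.33. Tgfbi, encoding a matrix protein induced by TGF-beta, averaged 53.4 ± 3.32 CPM in LPS+RCMNs, 28.0 ± 1.36 CPM in LPS and 52.1 ± 2.44 CPM in control (SD). It fell by 0.89 in LPS versus control and rose by 0.93 in LPS+RCMNs versus LPS (log2; edgeR adjusted p = 6.34e-05 and 6.10e-05). Klf10, a TGF-beta inducible transcription factor gene, fell by 1.33 and rose by 1.08 in the same comparisons. Cdkn1a, encoding the cell cycle inhibitor p21, rose by 0.80 in LPS+RCMNs versus LPS, and Id1, an inhibitor of DNA binding, rose by 1.42 in LPS versus control, but missed the threshold when LPS replicate 2 was left out.

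**Figure D5:**
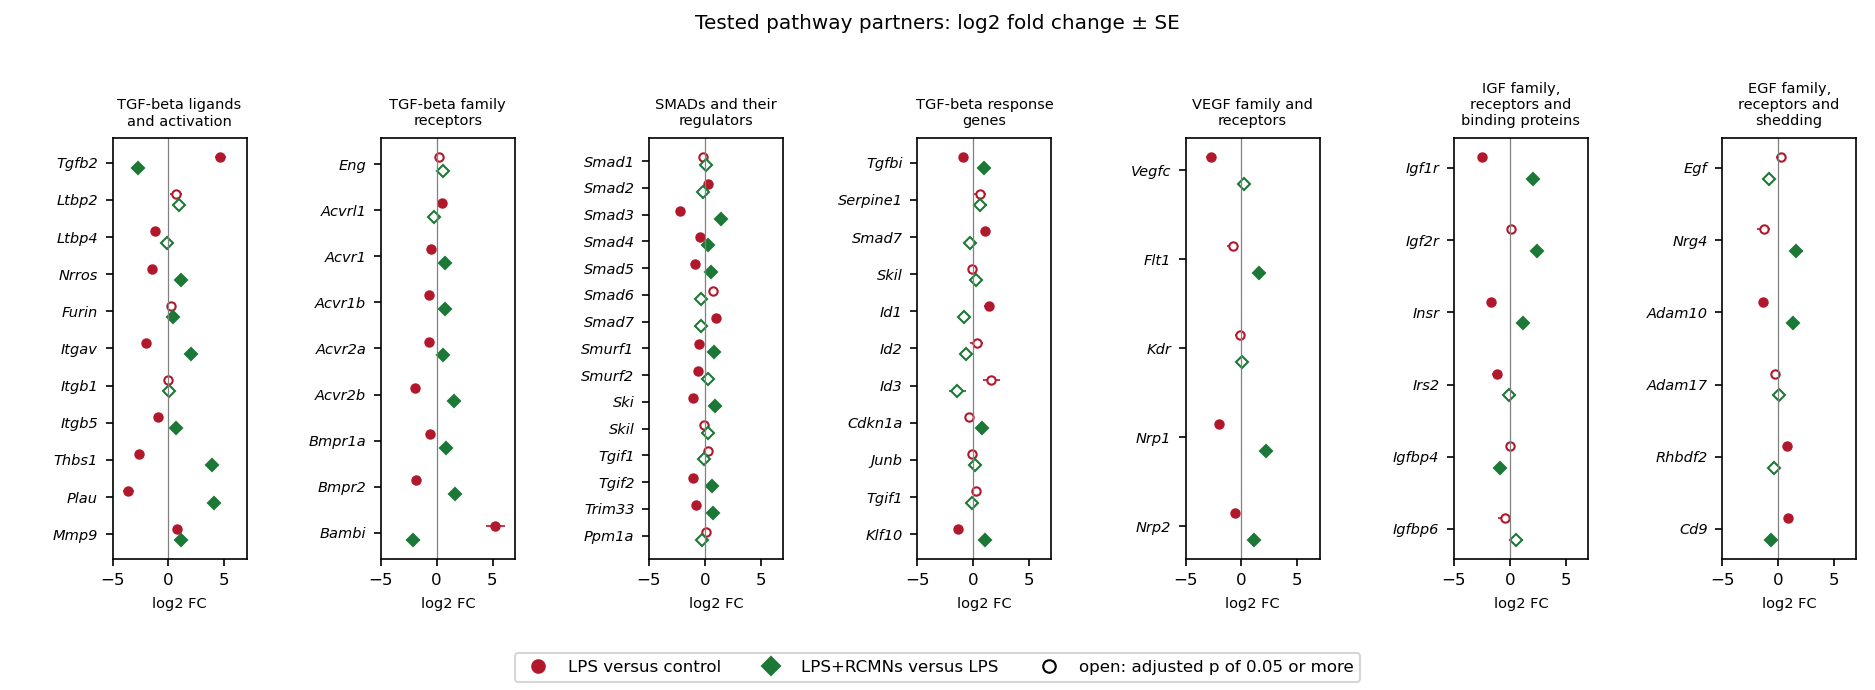
Log2 fold change ± SE of tested genes from 7 lists of pathway partners for LPS versus control (circles) and LPS+RCMNs versus LPS (diamonds); open symbols have an adjusted p of 0.05 or more. Most filled circles of receptors and SMADs lie left of 0 and most filled diamonds right of it. With the surface on length and level removed, this split turns for the SMADs. For TGF-beta family receptors it becomes 2 higher and 2 lower in LPS versus control, and 3 higher and 1 lower in LPS+RCMNs versus LPS. Tgfb2 and Bambi lie far to the right in LPS versus control, where their control levels were below the limit that a count of 0 allows.

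For the VEGF family and its receptors, 5 of 9 listed genes were tested. LPS versus control gave none higher and 3 lower (median -0.79), in LPS+RCMNs versus LPS 3 higher and none lower (median 1.15), and in LPS+RCMNs versus control 1 higher and 1 lower (median 0.21). With the length trend removed the first 2 medians were -0.08 and 0.58, and with the surface removed -0.72 and 0.58. The list had in LPS+RCMNs versus control 2 higher and 1 lower without both libraries that stood apart (median 0.57), and none higher and 1 lower without any 1 library other than LPS+RCMNs replicate 2. Nrp1, the neuropilin coreceptor for VEGF-A, averaged 214 ± 86.9 CPM in LPS+RCMNs, 47.3 ± 0.669 CPM in LPS and 186 ± 10.05 CPM in control (SD), a fall of 1.97 and a rise of 2.18 (log2; edgeR adjusted p = 5.16e-04 and 3.41e-04). Nrp2 averaged 709 ± 126 CPM in LPS+RCMNs, 319 ± 1.69 CPM in LPS and 471 ± 67.4 CPM in control (SD). It was called in all 3 comparisons, at -0.56 in LPS versus control, 1.15 in LPS+RCMNs versus LPS and 0.59 in LPS+RCMNs versus control; with the length trend removed its value in LPS versus control turned to 0.16. The LPS versus control call was lost without either LPS replicate or without control replicate 2 or 3. The receptor tyrosine kinase genes were low: Flt1 averaged 1.38 ± 0.298 CPM in LPS+RCMNs, 0.454 ± 0.300 CPM in LPS and 0.790 ± 0.167 CPM in control, and Kdr averaged 1.198 ± 0.366, 1.18 ± 0.728 and 1.32 ± 0.0286 CPM in the same groups (SD). Flt1 rose by 1.59 in LPS+RCMNs versus LPS (edgeR adjusted p = 0.0159), but missed the threshold when LPS replicate 1 or LPS+RCMNs replicate 1 was left out. Flt4 had 7 counts over all libraries. Vegfc, a ligand gene for lymphatic vessels, averaged 0.509 ± 0.101 CPM in LPS+RCMNs, 0.424 ± 0.171 CPM in LPS and 2.83 ± 0.991 CPM in control (SD), and was called lower in LPS versus control and in LPS+RCMNs versus control.

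The PDGF receptors were near 0 in these cells. Pdgfrb had 31 counts over all 8 libraries, with at most 0.484 CPM, Pdgfra had 4 counts and the ligand gene Pdgfc had 2, and none of the PDGF list was tested.

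For the IGF family, 6 of 14 listed genes were tested. None was called higher and 3 lower in LPS versus control (median -0.81), in LPS+RCMNs versus LPS 3 higher and 1 lower (median 0.88), and in LPS+RCMNs versus control 1 higher and 3 lower (median -0.48). The last count became 1 higher and 1 lower without any 1 of LPS+RCMNs replicates 1 and 3 and control replicates 2 and 3, and with the surface removed, which also lowered the median in LPS+RCMNs versus LPS to 0.49. With the length trend removed, LPS versus control had 1 higher and 2 lower (median -0.63). With either the trend or the surface removed, LPS+RCMNs versus LPS had 2 higher and 1 lower, so not all 3 rises were called there. Igf1r, the receptor gene for IGF-1, averaged 53.4 ± 3.60 CPM in LPS+RCMNs, 12.7 ± 0.509 CPM in LPS and 72.4 ± 4.54 CPM in control (SD). It fell by 2.51 in LPS versus control (edgeR adjusted p = 8.83e-07), rose by 2.07 in LPS+RCMNs versus LPS (edgeR adjusted p = 1.77e-06) and fell by 0.44 in LPS+RCMNs versus control (edgeR adjusted p = 0.0211), the last of these being lost without LPS+RCMNs replicate 1 or 3 or control replicate 2 or 3. Insr, the insulin receptor gene, averaged 40.4 ± 4.93 CPM in LPS+RCMNs, 17.6 ± 1.46 CPM in LPS and 57.9 ± 10.3 CPM in control (SD), and was called lower in LPS versus control and higher in LPS+RCMNs versus LPS. Igf2r, which clears IGF-2 and carries lysosomal enzymes, averaged 4.97 ± 0.528 CPM in LPS+RCMNs, 0.909 ± 0.257 CPM in LPS and 0.814 ± 0.152 CPM in control (SD). It rose by 2.44 in LPS+RCMNs versus LPS and by 2.599 in LPS+RCMNs versus control (edgeR adjusted p = 1.09e-04 and 6.09e-04). The binding protein gene Igfbp4, named after its values were seen, averaged 114 ± 17.8 CPM in LPS+RCMNs, 203 ± 24.3 CPM in LPS and 199 ± 3.73 CPM in control (SD). It fell by 0.83 in LPS+RCMNs versus LPS and by 0.80 in LPS+RCMNs versus control. Irs2, an insulin receptor substrate gene, was lower in LPS and in LPS+RCMNs than in control, at -1.17 and -1.25 (log2). The call against control was lost for LPS without LPS replicate 2 or control replicate 1 or 3, and for LPS+RCMNs without any 1 library. Without both libraries that stood apart it was also lost for LPS+RCMNs (-0.92).

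For the EGF family and shedding, 6 of 18 listed genes were tested. In LPS versus control 2 were called higher and 1 lower (median -0.0013), in LPS+RCMNs versus LPS 2 higher and 1 lower (median -0.13), and none was called in LPS+RCMNs versus control by edgeR. Without the libraries that stood apart, the counts in the 3 comparisons were 2 higher and 3 lower (median -0.08), 3 higher and 2 lower, and 2 higher and none lower. With the surface removed, the median in LPS+RCMNs versus LPS turned to 0.05. With the trend on gene length removed, 1 was higher and 2 lower in LPS versus control, at a median of 0.16. The receptor genes for HB-EGF and its relatives were near 0, with 8 counts for Egfr, 3 for Erbb2 and 38 for Erbb3 over all 8 libraries. Adam10, a sheddase gene, averaged 243 ± 16.1 CPM in LPS+RCMNs, 94.0 ± 6.18 CPM in LPS and 234 ± 30.4 CPM in control (SD), a fall of 1.31 and a rise of 1.37 (log2; edgeR adjusted p = 2.71e-05 and 2.72e-05). Cd9, encoding a tetraspanin that associates with HB-EGF, rose by 0.86 in LPS versus control and fell by 0.65 in LPS+RCMNs versus LPS, but turned to -0.26 and 0.40 with the surface removed. Rhbdf2, a cofactor gene of the sheddase ADAM17, rose by 0.84 in LPS versus control. The ligand gene Nrg4 rose by 1.64 in LPS+RCMNs versus LPS at 2.65 ± 1.36 CPM in LPS+RCMNs and 0.848 ± 0.172 CPM in LPS (SD), but missed the threshold when either LPS replicate or LPS+RCMNs replicate 1 or 3 was left out.

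Hypoxia and HIF genes were set beside Vegfa, and all 18 listed were tested. Of these, 5 were called higher and 11 lower in LPS versus control (median -0.62), in LPS+RCMNs versus LPS 7 higher and 3 lower (median 0.26), and in LPS+RCMNs versus control 2 higher and 4 lower (median -0.14). With the surface removed, LPS versus control had 3 higher and 7 lower (median -0.22) and LPS+RCMNs versus LPS a median of 0.14; with the length trend removed the medians were -0.29 and 0.17. Without LPS replicate 1, LPS versus control had 3 higher and 6 lower, and without LPS replicate 2, LPS+RCMNs versus LPS had 3 higher and 3 lower. LPS+RCMNs versus control had 1 higher and 2 lower without LPS+RCMNs replicate 1 or 3. Without both libraries that stood apart, the median in LPS+RCMNs versus LPS was 0.16. The glycolytic genes Ldha (1.03) and Pgk1 (0.89) rose in LPS versus control, whereas Pdk1, a kinase gene that limits entry into the citric acid cycle, fell by 1.15. In LPS+RCMNs versus LPS, Ldha fell by 1.01, Pgk1 fell by 0.58 and Pdk1 rose by 0.62. With the surface removed, Ldha and Pgk1 were at -0.09 and -0.09 in LPS versus control. Chosen after their values were seen, Ankrd37 (-2.46), Ndrg1 (-2.25) and the HIF-2 alpha gene Epas1 (-1.98) had the largest falls of the list in LPS versus control. In LPS+RCMNs versus control, Pfkfb3 (0.78) and Pgk1 (0.31) were called higher and Adm (-1.80), Ankrd37 (-1.67), Bnip3 (-1.13) and Pdk1 (-0.53) lower (log2 fold changes). Adm missed the threshold without any 1 library other than control replicate 1, Pdk1 without LPS+RCMNs replicate 1 or 3, and Pgk1 without any 1 of these or control replicates 2 and 3.

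For each of the 9 genes, the 2 tested genes outside the set, among those averaging 5 FPKM or more, with the most similar pattern of log2 CPM over the 8 libraries were taken by Pearson correlation and as a description only. They were Smarca2 (r = 0.999) and Plxnc1 (0.998) for Tgfbr1, Arl4c (0.994) and Lgmn (0.993) for Tgfbr2, Fgd4 (0.997) and BC017158 (0.996) for Vegfa, and Ppm1g (0.989) and E2f4 (0.989) for Tgfb1. For Vegfb they were Coq9 (0.985) and Nelfb (0.970), for Igf1 Slc20a1 (0.981) and Eme2 (0.978), for Pdgfa Kcnn4 (0.986) and Hyou1 (0.985), for Pdgfb Srsf2 (0.977) and Secisbp2 (0.973), and for Hbegf Zfp36 (0.983) and Hspa5 (0.982). The points share libraries, depth and the separation of the LPS group. Smarca2, a chromatin remodelling ATPase gene, averaged 39.5 CPM in LPS+RCMNs, 20.02 CPM in LPS and 48.8 CPM in control.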

How the data were processed

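Polyadenylated RNA of 8 MH-S libraries was sequenced (TRIzol extraction and a BGI mRNA library kit, per the labels' protocols). The authors deposited 1 table of 17518 genes. Per the file headers it holds read counts, which are expected counts as deposited, since 77.8% of those above 0 were not within 0.001 of a whole number. The second measure is the authors' FPKM (per kb of gene and M reads). The submitters' processing notes name mm10, with aligner and counter not given in the sources used here. Each column was assigned through the code that a sample's description carries, and 4 per-sample columns of no labelled sample were left aside.

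After rounding, edgeR 4.0.16 was used (filterByExpr, TMM scaling, quasi-likelihood test; R 4.3.3; all 8 libraries in 3 groups so that LPS, with 2 libraries, shares the estimate of spread), with Benjamini-Hochberg adjustment over 11911 genes and a threshold of 0.05. The SE is the size of the log2 fold change over the square root of F. The common biological coefficient of variation was 14.5%. Of the gene IDs, 99.7% matched a GRCm38.p6 table, and implied length is count over FPKM and depth. The procedure was tested on simulated data. These held no trend with gene length and no libraries that stand apart, so that test does not cover either feature.

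The 9 genes and the lists were chosen with earlier results of these data known, so that they are no independent support for any direction. Text names the 9 genes, up to 3 genes of smallest p per list in LPS versus control and in LPS+RCMNs versus LPS, the listed receptors of the ligands, and 2 pattern neighbours each; other names are marked as later choices. Erbb4 is not analysed here. Alternatives were a fit of the groups compared only, each library left out, a block for the replicate number, both libraries that stood apart left out, a fold minimum (log2 of 1), no filter, a filter at 5 FPKM in 2 libraries, size factors by median ratio, the DESeq2 1.42.0 test, limma 3.58.1 on log2(FPKM + 1) and log2(FPKM + 0.1), a robust prior, and a trend on gene length or a surface on length and level removed (loess, span 0.4).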

Additional observations from a re-analysis of the deposited data

How the results depend on the processing

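In the alternatives run, Tgfbr1 and Vegfa kept their direction and side of the threshold in LPS versus control and in LPS+RCMNs versus LPS. The count of all genes called in LPS versus control was 7554, and 3619 with a fold minimum. In LPS+RCMNs versus LPS it was 7063, 3162 with a fold minimum and 4608 with the length and level surface removed. In LPS+RCMNs versus control it was 901, 454 with the replicate block, 314 with a fold minimum, 1379 with DESeq2, 3017 without both libraries that stood apart (25.5% of genes tested there), and 322 to 1372 with 1 library left out, lowest without LPS+RCMNs replicate 3 and highest without LPS+RCMNs replicate 2. Whether replicate numbers pair the samples is not stated. Deviations of same-numbered libraries from their group means correlated at -0.28, -0.34 and 0.20 between control and LPS+RCMNs. They correlated at 0.19 and 0.14 between control and LPS, and at -0.11 and -0.14 between LPS and LPS+RCMNs. As deviations within a group are tied to each other, these values cannot decide on pairing, and the block is given as an alternative only. The block changed no call among the 9 genes; Pdgfa in LPS versus control was 0.033 under it. In LPS+RCMNs versus control it left 2 calls, both higher, where the TGF-beta ligand list had 5, and 1 higher and 1 lower where the IGF list had 4.

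Of the 9 genes, 4 were called in LPS+RCMNs versus LPS, 7 without both libraries that stood apart, where 73.8% of all genes were called, and 2 with a fold minimum, with the length trend removed or with the surface removed, where 26.5%, 40.4% and 38.7% of all genes were. None was called in LPS+RCMNs versus control by edgeR (3 at an unadjusted p below 0.05), against 3 without both libraries, 2 with DESeq2 and 1 with limma on log2(FPKM + 1). Values that turned sign follow as log2 fold changes. Without both libraries, Tgfb1 in LPS+RCMNs versus control was -0.0015, Vegfb, Igf1 and Pdgfb in LPS versus control were 0.25, -0.10 and -0.036, and Pdgfb in LPS+RCMNs versus control was -0.20. With single libraries left out, values in LPS versus control ran between -0.12 and 0.25 for Vegfb, -0.10 and 0.31 for Igf1, -0.21 and 0.14 for Pdgfa and -0.036 and 0.71 for Pdgfb, and for Pdgfb in LPS+RCMNs versus control between -0.40 and 0.35. On FPKM with pseudocounts of 1 and 0.1, Tgfb1 was 0.0232 and 0.0234, Pdgfb 0.061 and 0.0610 and Acvrl1, of the TGF-beta family receptor list, 0.16 and 0.19 in LPS+RCMNs versus LPS, and Igf1 was -0.31 and -0.32 and Igf2r -0.027 and -0.16 in LPS versus control; no TMM scaling enters these. With the length trend and with the surface removed, Vegfb was 0.26 and 0.20, Igf1 -0.43 and -0.53, Cd9 0.087 and 0.40 and Trim33 -0.11 and -0.34 in LPS+RCMNs versus LPS, and Pdgfa was 0.14 and 0.35 in LPS versus control. With the surface alone, Tgfb1 was 0.017 and Pgk1 0.25 in LPS+RCMNs versus LPS, Cd9, Ldha and Pgk1 were -0.26, -0.091 and -0.093 in LPS versus control, and Pdgfb was -0.028 in LPS+RCMNs versus control. With the length trend alone Nrp2 was 0.16 in LPS versus control, and with single libraries left out Igf2r ran between -0.11 and 0.45. The cause was not tested. Pdgfa was not tested under the stricter filter. With 1 LPS library left out, the lone LPS library is assumed to vary like the other groups. The LPS group of 2 libraries and the low counts of Pdgfa limit what could be detected.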
